A study of Mus musculus with 73 samples.

Results

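A set of 10 genes that mark the passage of pluripotent cells out of the naive state were followed through 12 RNA-seq libraries of male mouse embryonic stem (ES) cells. The 10 genes were Fgf5, Fgf15, Otx2, Pou3f1, Zic2, Zic5, Sox3, Sox11, Sall2 and Foxd3, chosen by symbol from 37310 gene identifiers in a table of read counts per gene. Each of the 10 symbols matched 1 identifier, and 9 of the genes held enough counts to be tested. The untested one, Pou3f1, a POU-domain transcription factor of the epiblast, was listed at 0 counts in all 12 libraries. A floor of 3 counts lay between 0.0685 and 0.0884 CPM (counts scaled to library size) in these libraries, and 11945 identifiers (32.0%) were likewise at 0 throughout. Whether the counting could assign reads to Pou3f1 was not tested.

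The libraries came from E14Tg2a, an XY line of strain 129/Ola, grown undifferentiated on gelatin without feeder cells, in serum with leukemia inhibitory factor (LIF). The edited cells carried an allele of the X-inactivation centre (Xic), the part of the X chromosome that contains Xist and its antisense gene Tsix. The first allele is named 40kb [Tsix-Xist] (clones 2G1 and 3D5, here clones 1 and 2) and the other 70kb [Xite-Jpx] (clones 18C6 and 20E7, here clones 1 and 2). Each clone gave 2 libraries, so each allele had 4, and each set had 2 wild-type (WT) libraries of unedited E14Tg2a that the titles tie to it. The series speaks of deletions and of inversions, and the sources used here do not say which of these the alleles are. Nothing says that replicates came from separate cultures, so p-values measure the spread between libraries, which may be technical, and each allele rests on 2 clones.

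The naive state of the early epiblast, which ES cells resemble, gives way in the embryo to a formative state and then to a primed one. Fgf5 is the usual marker of that step, and the homeobox factor Otx2 helps to drive it, while factors such as Zic2, Foxd3 and the SOX proteins act on enhancers that are being taken into use. Fibroblast growth factor (FGF) signalling through its receptors and ERK pushes cells out of the naive state, whereas LIF holds them in it. In serum with LIF, a culture is a mixture of cells nearer to and farther from the naive state. In bulk RNA, fewer cells of a type and less RNA per cell cannot be told apart.

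The stretches of 250 bases before the annotated starts of Fgf5, Sox11 and Foxd3 are shown because these are members with a single RefSeq start whose 40kb libraries lay all on 1 side of their WT libraries, below for Fgf5 and Sox11 and above for Foxd3. They are from RefSeq (GRCm38.p6), which holds promoter entries for 6 of the 10 members; Pou3f1, Zic2, Sox3 and Fgf15 had no entry. Capitals mark matches on either strand to any of 5 motifs: TATAAA, the GC box GGGCGG, the SOX-type core ACAAAG, the OTX-type TAATCC and the octamer ATGCAAAT.
Fgf5, chr5:98253934-98254183, plus strand: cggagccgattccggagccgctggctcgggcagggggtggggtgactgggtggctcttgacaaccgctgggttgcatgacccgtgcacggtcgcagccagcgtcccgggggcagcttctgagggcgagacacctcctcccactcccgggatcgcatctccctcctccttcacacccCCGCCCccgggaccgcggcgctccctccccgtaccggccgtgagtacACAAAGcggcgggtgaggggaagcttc
Sox11, chr12:27342719-27342968, minus strand: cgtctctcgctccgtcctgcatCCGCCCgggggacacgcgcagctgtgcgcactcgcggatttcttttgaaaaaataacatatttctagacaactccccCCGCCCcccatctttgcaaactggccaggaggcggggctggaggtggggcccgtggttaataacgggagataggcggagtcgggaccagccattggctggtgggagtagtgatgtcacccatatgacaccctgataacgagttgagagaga
Foxd3, chr4:99656049-99656298, plus strand: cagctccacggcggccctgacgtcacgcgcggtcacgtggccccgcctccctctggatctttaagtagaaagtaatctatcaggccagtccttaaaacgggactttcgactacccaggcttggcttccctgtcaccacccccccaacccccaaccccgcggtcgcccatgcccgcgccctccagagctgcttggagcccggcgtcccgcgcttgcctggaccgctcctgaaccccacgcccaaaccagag
Fgf5 held 1 GC box, beginning 74 bases before the start, and 1 ACAAAG, beginning 27 bases before it. Sox11 held 2 GC boxes, and Foxd3 matched none of the 5. Among 32851 RefSeq stretches of the same length, 32.7% held GGGCGG, 16.5% ACAAAG, 12.4% TATAAA, 6.25% TAATCC and 1.6% ATGCAAAT. A match is a description of letters, not of a bound site.

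Libraries held 34514493 to 46605508 counts, and levels are CPM after TMM scaling, which are not per length and so are compared between libraries of 1 gene only. Xist, named in the 40kb label, stood at 14.7 to 82.0 CPM in 40kb libraries and 0.734 to 0.801 CPM in their WT, and at 4.63 to 8.75 CPM in 70kb libraries and 0.832 to 2.25 CPM in theirs. Tsix stood at 12.99 to 22.9 CPM in 40kb libraries and 11.8 to 19.3 CPM in their WT, and at 8.35 to 15.2 CPM in 70kb libraries and 11.7 to 19.7 CPM in theirs. Whether the counting used strand is not given, and these genes overlap on opposite strands, so their counts carry that doubt. The 10 ES cell markers, among them Pou5f1, Sox2 and Nanog, were above 0 in every group and summed to 5574 to 9138 CPM per library. A difference was called where edgeR's quasi-likelihood test, adjusted over the 16636 genes tested, gave p under 0.05.

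The clearest difference was in the FGF ligand Fgf5. In 40kb cells it stood at 0.708 and 1.60 CPM in the replicates of clone 1 and at 2.67 and 3.92 CPM in those of clone 2, against 8.22 and 16.98 CPM in their WT. All 4 edited libraries lay below both WT libraries, and clone 1 lay below clone 2. Fgf5 averaged 2.22 ± 1.38 CPM in 40kb cells (SD, n = 4) and 12.6 ± 6.20 CPM in WT cells (SD, n = 2), a fall of 5.68-fold in the fit (log2 fold change -2.51, SE 0.60, edgeR adjusted p = 0.0323). It was the only member called of the 9 tested, where 6.43% of all genes were called, and 5.67% were called lower. The 31 to 671 counts behind these values are few beside those of Otx2, which held 1336 to 3456.

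The fall of Fgf5 kept its direction in all 19 alternative settings, but its call did not hold in 8. It was lost without WT replicate 2, the highest library (log2 fold change -1.89, edgeR adjusted p = 0.345), and without WT replicate 1 (adjusted p = 0.0824). It was also lost without clone 1 replicate 1 (adjusted p = 0.0570), clone 1 replicate 2 (adjusted p = 0.0782) or clone 2 replicate 1 (adjusted p = 0.0628), and with counts summed per clone (adjusted p = 0.0677). By clone, the log2 fold change was -3.46 in clone 1 (edgeR adjusted p = 0.0115) and -1.94 in clone 2 (adjusted p = 0.129). Against the WT libraries of the 70kb set it was -1.35 (adjusted p = 0.379), and against all 4 WT libraries -2.04 (adjusted p = 0.0454).

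**Figure D1:**
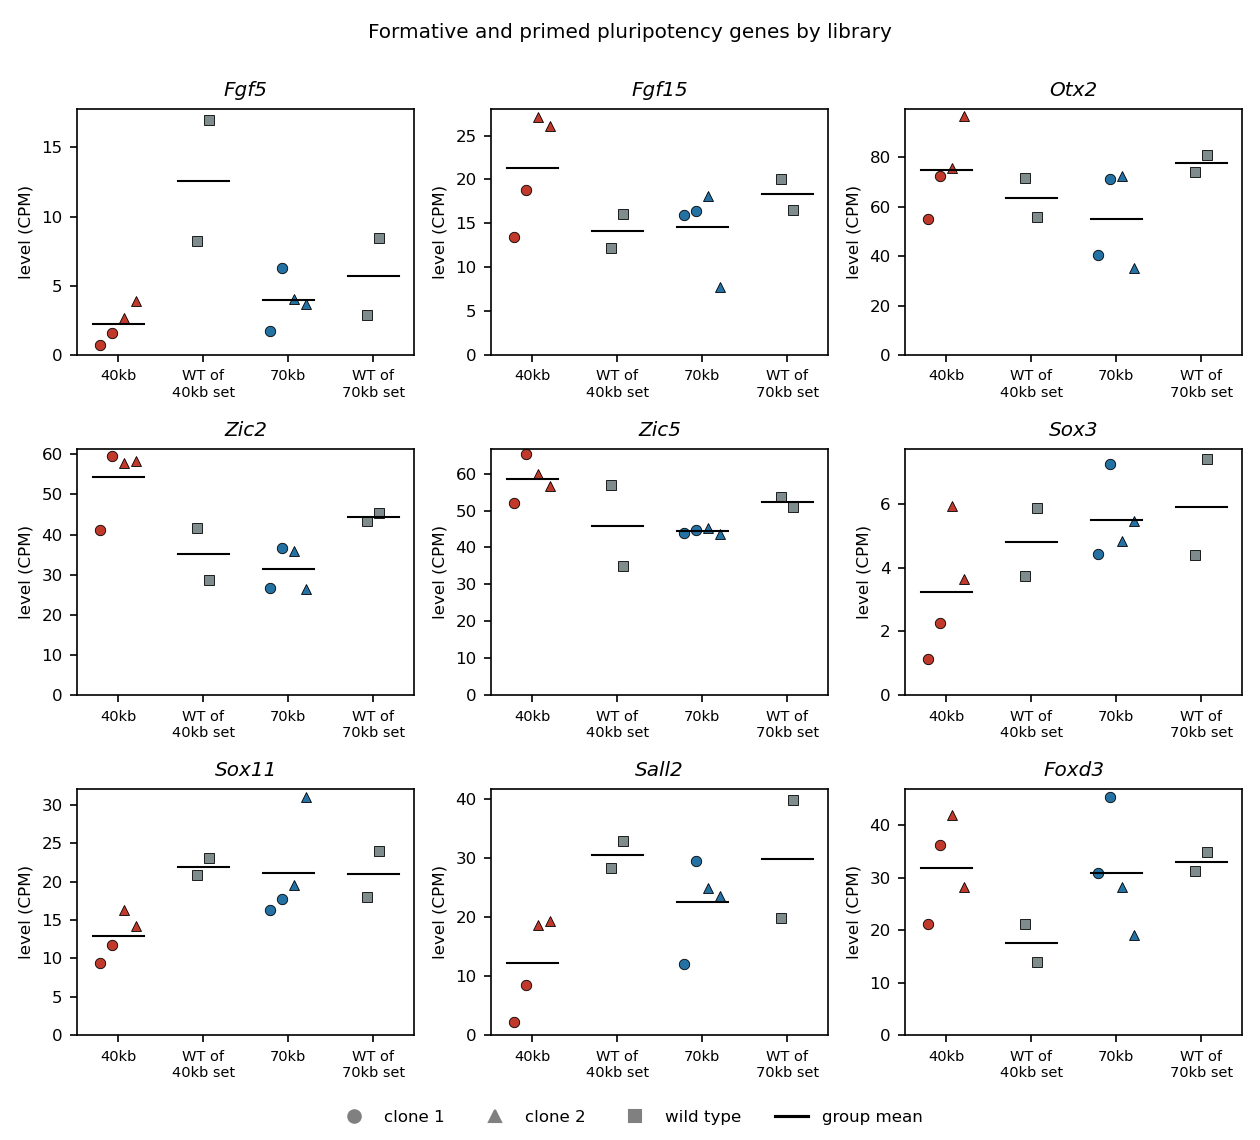
Levels of the 9 tested members in CPM (vertical axes, linear, from 0) in each library of 40kb cells, their WT, 70kb cells and their WT; circles are clone 1, triangles clone 2, squares WT, and bars group means. Fgf5, Sall2 and Sox11 lie below both WT libraries in all 4 of the 40kb libraries and Foxd3 lies above them.

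**Figure D2:**
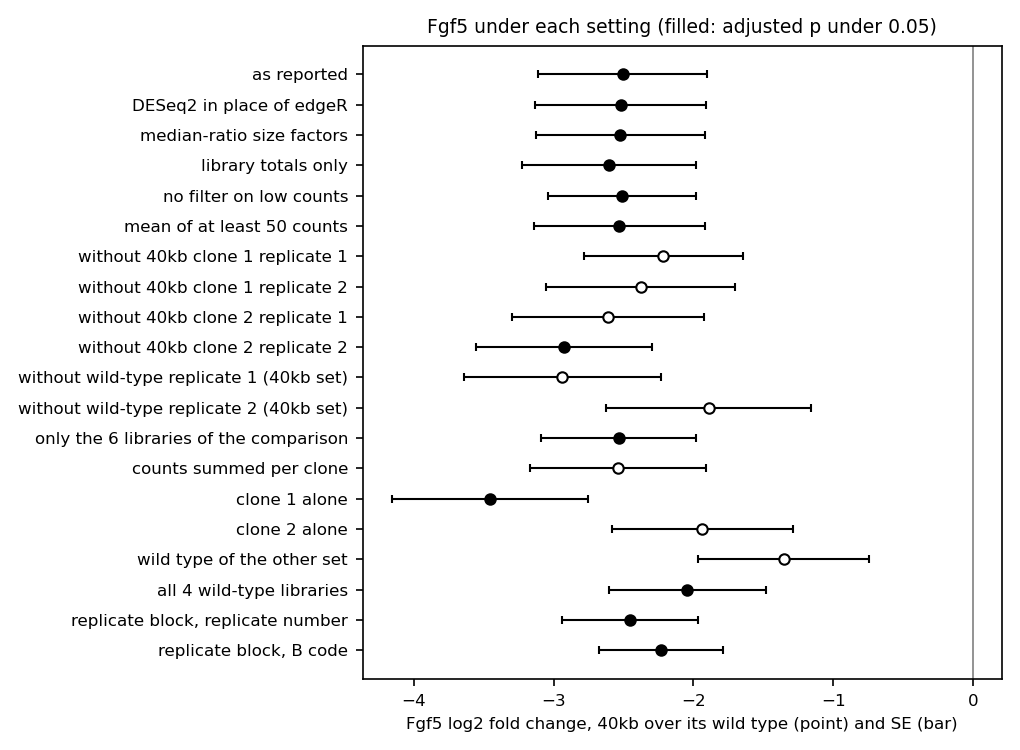
The log2 fold change of Fgf5 in 40kb cells over their WT (horizontal axis, points, with SE as bars) as reported and in 19 alternative settings (rows); filled points have an adjusted p under 0.05. All 20 points lie below 0, from -3.46 with clone 1 alone to -1.35 with the WT of the other set.

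The sample names carry codes from B1 to B14 whose meaning is not given, and libraries that share a code allow a comparison within it. Fgf5 had a log2 ratio of -2.36 between clone 1 replicate 2 and WT replicate 1 of the 40kb set, which share B2. The ratio was -2.12 between clone 2 replicate 2 and WT replicate 2, which share B6. Both lay close to the fold change over the whole set, which includes these same libraries, so the ratios are not a separate check. Clone 1 replicate 1 and clone 2 replicate 1 share no code with a WT library.

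Sall2 and Sox11 also lay below WT in every 40kb library. Sall2, a spalt-type zinc-finger transcription factor, stood at 2.26, 8.41, 18.7 and 19.2 CPM in 40kb cells (clone 1, then clone 2), against 28.2 and 32.8 CPM in WT cells. The groups did not overlap, yet the spread between the clones was wide, and at -1.33 (SE 0.59) its log2 fold change missed the threshold (edgeR adjusted p = 0.195). Sox11, a SoxC factor of neural and other progenitors, stood at 9.46, 11.7, 16.4 and 14.18 CPM in 40kb cells and at 20.9 and 23.1 CPM in WT cells. At -0.76 (SE 0.26), its log2 fold change missed the threshold too (edgeR adjusted p = 0.106). Lower and without overlap were thus 3 of 9 members, where 19.7% of all genes were. These 3, Fgf5, Sall2 and Sox11, were measured in the same libraries and are not separate observations. All had their lowest level in 40kb clone 1 replicate 1. With clone 1 alone, Sall2 (log2 fold change -2.52, edgeR adjusted p = 0.0159) and Sox11 (-1.05, adjusted p = 0.0176) were called. With clone 2 alone neither was, at -0.69 for Sall2 (edgeR adjusted p = 0.529) and -0.52 for Sox11 (adjusted p = 0.260).

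Sox3, the X-linked SoxB1 factor, overlapped its WT. It stood at 1.14, 2.25, 5.96 and 3.66 CPM in 40kb cells, against 3.73 and 5.90 CPM in WT cells. Both low values were those of clone 1. The log2 fold change was -0.56 (SE 0.49, edgeR adjusted p = 0.510); with clone 1 alone it was -1.51 (adjusted p = 0.0393), and with clone 2 alone 0.0021.

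The remaining 5 members had fold changes above 0 in 40kb cells, and none was called. Foxd3, a forkhead factor needed to maintain the mouse epiblast, stood at 21.2, 36.3, 42.0 and 28.3 CPM in 40kb cells, against 21.1 and 13.8 CPM in WT cells. All 4 edited libraries lay above both WT libraries, narrowly so in clone 1 replicate 1, and the log2 fold change was 0.87 (SE 0.33, edgeR adjusted p = 0.139). It was the 1 member of 9 higher without overlap, where 16.4% of all genes were. Against the WT of the other set it was -0.05.

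Zic2 and Zic5 encode zinc-finger transcription factors and are neighbours on chromosome 14, with 1 noncoding gene between them. Zic2 stood at 41.2, 59.7, 57.7 and 58.3 CPM in 40kb cells and at 41.5 and 28.6 CPM in WT cells, with 3 of 4 edited libraries above both WT libraries (log2 fold change 0.63, SE 0.21, edgeR adjusted p = 0.0940). Zic5 stood at 52.1, 65.2, 59.8 and 56.6 CPM in 40kb cells, against 56.9 and 34.9 CPM in WT cells. Its range overlapped that of WT, and its log2 fold change was 0.35 (SE 0.17, edgeR adjusted p = 0.233). That value was 0.036 without WT replicate 2 and 0.74 without WT replicate 1.

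Otx2 and Fgf15 overlapped their WT as well. Otx2 stood at 54.9, 72.6, 75.5 and 96.7 CPM in 40kb cells, against 71.6 and 55.8 CPM in WT cells, with a log2 fold change of 0.23 (SE 0.29, edgeR adjusted p = 0.664), and leaving out 1 library gave 0.063 to 0.42. Fgf15, the mouse counterpart of human FGF19 and a hormone-like FGF that signals through FGFR4 with beta-klotho, stood at 13.4, 18.8, 27.1 and 26.1 CPM in 40kb cells, against 12.2 and 16.1 CPM in WT cells. Its log2 fold change was 0.60 (SE 0.34, edgeR adjusted p = 0.307). RefSeq places the noncoding gene Gm26793 over Fgf15, so without a stated strand setting its counts are uncertain.

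The members therefore did not move as a block in 40kb cells: 4 of the 9 fold changes were below 0 and 5 above, with a median of 0.23 on the log2 scale, against 0.06 over all 16636 genes, of which 43.8% were below 0. At an unadjusted p under 0.05 stood 5 of the 9 members, where 23.5% of all genes did.

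**Figure D3:**
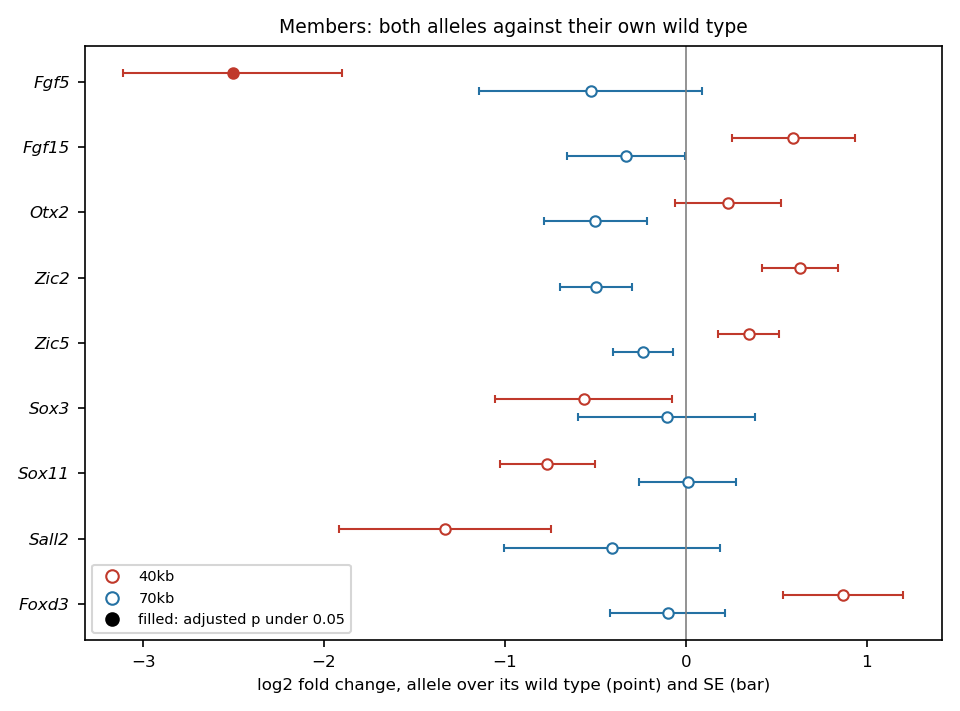
Log2 fold change of each tested member (horizontal axis, points, with SE as bars) for 40kb cells over their WT in red and 70kb cells over their WT in blue; filled points have an adjusted p under 0.05. In 40kb cells Fgf5 alone is filled, at -2.51, and the others run from -1.33 to 0.87; in 70kb cells the 9 run from -0.52 to 0.01.

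In 70kb cells no member was called, and no gene of the 16636 was (0%) in edgeR, where 100 genes (0.601%) stood at an unadjusted p under 0.05, among them 1 member, Zic2; DESeq2 called 3 genes and no member. Fgf5 stood at 1.71 and 6.31 CPM in clone 1 and at 4.03 and 3.69 CPM in clone 2, against 2.90 and 8.45 CPM in WT cells. The ranges overlapped, and the log2 fold change was -0.52 (SE 0.62, edgeR adjusted p = 1.00). Its direction rested on WT replicate 2: without that library it was 0.44. Between libraries of the same code, the log2 ratio of Fgf5 was -0.76 and 0.48 in B13 and -0.42 and -1.20 in B14 (clone 1, then clone 2).

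Zic2, Zic5 and Otx2, 3 of 9 members, lay below both WT libraries in all 4 of the 70kb libraries, where 3.08% of all genes did. Zic2 and Zic5, and then Otx2 and Zic2, were also the member pairs with the smallest differences in log2 CPM, each gene centred on its mean. That measure favours members that vary little. The 3 were measured in the same libraries and are not separate observations. Zic2 stood at 26.6, 36.8, 35.8 and 26.4 CPM in 70kb cells, against 43.3 and 45.3 CPM in WT cells (log2 fold change -0.50, SE 0.20). Zic5 kept close to 44 CPM in 70kb cells, at 43.6 to 45.4 CPM, against 53.7 and 51.1 CPM in WT cells (log2 fold change -0.24, SE 0.17). Otx2 stood at 40.6, 71.3, 72.6 and 35.2 CPM in 70kb cells, against 74.2 and 81.2 CPM in WT cells (log2 fold change -0.50, SE 0.29). None passed the test (edgeR adjusted p = 1.00 for each), and the unadjusted p of Zic2 was 0.0287. Within codes Zic2 had log2 ratios of -0.70 and -0.27 in B13 and of -0.30 and -0.78 in B14. The direction of Zic2, Zic5 and Otx2 held in all 19 alternative settings. Against the WT of the other set the falls were smaller, with log2 fold changes of -0.16 for Zic2, -0.048 for Zic5 and -0.21 for Otx2.

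The other members of the 70kb set overlapped their WT. Sall2 stood at 12.05, 29.5, 25.0 and 23.6 CPM in 70kb cells and at 19.9 and 39.8 CPM in WT cells. Fgf15 stood at 16.0, 16.4, 18.1 and 7.72 CPM in 70kb cells and at 20.1 and 16.5 CPM in WT cells. Foxd3 stood at 30.8, 45.3, 28.2 and 19.1 CPM in 70kb cells and at 31.2 and 34.9 CPM in WT cells. For these the SD of the 70kb libraries exceeded the difference between the means. Sox3 stood at 4.45, 7.26, 4.84 and 5.48 CPM in 70kb cells and at 4.42 and 7.43 CPM in WT cells. Sox11 stood at 16.3, 17.7, 19.6 and 31.0 CPM in 70kb cells and at 18.0 and 24.0 CPM in WT cells. Over all members, 8 of 9 fold changes were below 0, with a median of -0.33, where 48.6% of all genes were below 0 and their median was 0.0046.

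Whether the alleles differed in effect, each against its own WT, was tested directly. The test called no member and no gene (0%) in edgeR, with 2128 genes (12.8%) and 3 members at an unadjusted p under 0.05, while DESeq2 called 399 genes and 1 member, Zic2. The fold change of Zic2 was 0.63 in 40kb cells and -0.50 in 70kb cells, a difference of 1.13 on the log2 scale (SE 0.29, edgeR adjusted p = 0.169, DESeq2 adjusted p = 0.0323). For Fgf5 the difference was -1.98 (SE 0.89, edgeR adjusted p = 0.379). So the call of Fgf5 in 40kb cells and its absence in 70kb cells do not by themselves show that the alleles differ.

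The WT libraries of both sets are labelled as unedited E14Tg2a and were compared with each other. Their names in the count table differ, with E14 in the 40kb set and E14.2 in the 70kb set, and what the suffix stands for is not given, so the set and the culture cannot be told apart. None of the members, and no gene (0%), was called between them in edgeR, with 394 genes (2.37%) and 1 member at an unadjusted p under 0.05, and DESeq2 called none. Fgf5 averaged 12.6 ± 6.20 CPM in the WT of the 40kb set and 5.67 ± 3.92 CPM in that of the 70kb set (SD, n = 2 each), a log2 difference of 1.15 (SE 0.72, edgeR adjusted p = 0.997). It was 0.54 without WT replicate 2 of the 40kb set and 2.12 without WT replicate 2 of the 70kb set. Foxd3 averaged 17.5 ± 5.14 CPM in the WT of the 40kb set and 33.1 ± 2.60 CPM in that of the 70kb set, a log2 difference of -0.92 (SE 0.37, edgeR adjusted p = 0.997). Foxd3, Fgf15, Otx2 and Zic2 were lower without overlap in the WT of the 40kb set, 4 of 9 members, where 21.2% of all genes were.

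Ordered by mean, Fgf5 was lowest in 40kb cells, then in 70kb cells at 3.94 ± 1.89 CPM (SD, n = 4), then in the WT of the 70kb set, and highest in the WT of the 40kb set. The ranges of neighbours in that order overlapped, those of the WT sets because the 8.22 CPM of a library of the 40kb set lay under the 8.45 CPM of a library of the 70kb set. Sall2 averaged 12.1 ± 8.26 CPM in 40kb cells and 22.5 ± 7.41 CPM in 70kb cells (SD, n = 4 each), and then 29.8 ± 14.1 CPM in the WT of the 70kb set and 30.5 ± 3.23 CPM in that of the 40kb set (SD, n = 2 each), again with overlap between neighbours.

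Among the 40kb libraries, clone 1 replicate 1 stood apart from the other 3. The chi-square per degree of freedom between count profiles was 122 between it and clone 1 replicate 2, and 184 and 171 between it and the libraries of clone 2, while clone 1 replicate 2 was nearer to clone 2, at 49.4 and 34.6. Clone 2 lay above clone 1 without overlap in 6 of the 9 members and below it in 0, where 23.4% of all genes lay above and 21.9% below. The log2 difference, clone 2 over clone 1, was 1.84 for Sall2 (SE 0.55, edgeR adjusted p = 0.173), 1.52 for Fgf5 (SE 0.68, adjusted p = 0.295) and 1.51 for Sox3 (SE 0.43, adjusted p = 0.160). None was called in edgeR, where 0.0661% of genes were, 11 in all, and 5 members and 16.6% of genes stood at an unadjusted p under 0.05; DESeq2 called 562 genes and 1 member, Sox3 (adjusted p = 0.0195). Without clone 1 replicate 1 the log2 difference was 1.17 for Sall2, 1.03 for Fgf5 and 1.10 for Sox3, and edgeR called 1 gene. Without clone 1 replicate 2 it was 3.07 for Sall2, 2.22 for Fgf5 and 2.08 for Sox3, and 2914 genes were called. Zic2, Zic5 and Foxd3 were the 3 members whose clones overlapped.

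Between the clones of the 70kb allele no member was called, while 2 genes of all were (0.012%) and 1 member and 9.49% of genes stood at an unadjusted p under 0.05; DESeq2 called 179 genes and no member. Sox11 was higher without overlap in clone 2 (log2 difference 0.58, SE 0.24, edgeR adjusted p = 0.472) and Foxd3 lower (-0.69, SE 0.32, adjusted p = 0.547), where 20.4% of genes were higher and 20.8% lower, and the other 7 overlapped.

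**Figure D4:**
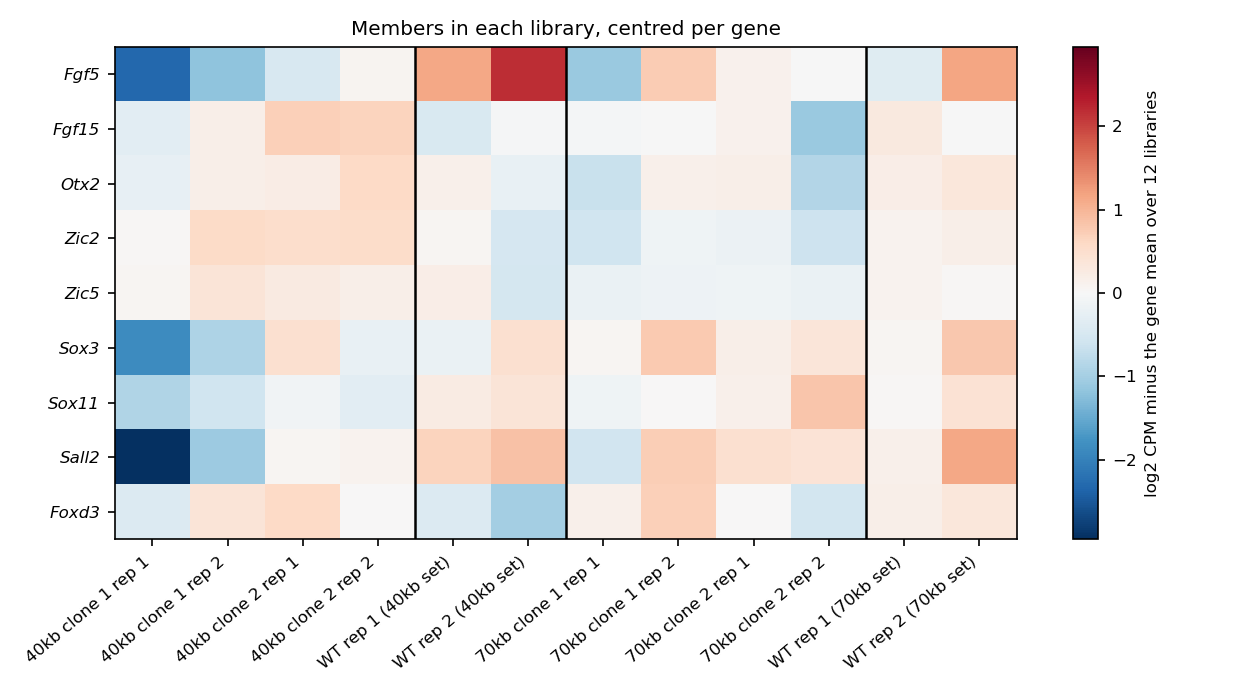
Log2 CPM of the 9 tested members (rows) in the 12 libraries (columns), centred on each gene's mean over the libraries (colour, log2 units; red above the mean, blue below); black lines part the groups. The darkest blue cells are those of Sall2 and Fgf5 in 40kb clone 1 replicate 1, and the darkest red is Fgf5 in WT replicate 2 of the 40kb set.

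Over the 12 libraries the members ranged from variable to steady. The level of Fgf5 spanned 24.0-fold and that of Sall2 17.6-fold, and their SDs of 1.22 and 1.12 log2 units were exceeded by 2.37% and 3.17% of the genes tested. Sox3 spanned 6.51-fold. The other 6 spanned 1.87-fold (Zic5) to 3.51-fold (Fgf15), and 61.5% of genes varied more than Zic5. Fgf5, Sox3, Sall2 and Sox11 all had their lowest level in 40kb clone 1 replicate 1, whereas Otx2, Zic2 and Fgf15 had theirs in 70kb clone 2 replicate 2.

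Likeness between patterns was measured as the root mean square difference of centred log2 CPM over the 12 libraries, where 0 is an identical pattern. It is not scaled by how much a gene varies, so steady genes lie near each other. Among the members the nearest pair was Zic2 and Zic5 (0.22), followed by Otx2 and Zic2 (0.24). Among 12738 other genes, the nearest to Fgf5 were Tap2 (0.33) and Irgm1 (0.37), those nearest to Sall2 were Adamts1 (0.20) and Cdh2 (0.29), and those nearest to Sox3 were Prr7 (0.23) and Tmem121 (0.25). All points share the same libraries and their scaling, and this is a description with no test.

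Fgf5 was not the only FGF ligand called in 40kb cells. Fgf8, a ligand of the primitive streak, stood at 0.206, 0.570, 0.693 and 0.811 CPM in 40kb cells, against 3.00 and 10.6 CPM in WT cells, and fell (log2 fold change -3.58, SE 0.69, edgeR adjusted p = 0.0201). Fgf4, the ligand by which naive cells drive their own ERK signalling, stood at 229, 227, 206 and 200.3 CPM in 40kb cells, against 148 and 84.2 CPM in WT cells, and rose (log2 fold change 0.89, SE 0.25, edgeR adjusted p = 0.0488). The direction of both held in all 19 alternative settings, the call of Fgf8 in 13 and that of Fgf4 in 4. Without WT replicate 2 Fgf8 had a log2 fold change of -2.40 (edgeR adjusted p = 0.257) and Fgf4 one of 0.54 (adjusted p = 0.471). Without either WT library of the 40kb set edgeR called no gene at all, so every call in 40kb cells rests on both of them. In 70kb cells Fgf8 had a log2 fold change of -0.49 (SE 0.70) and Fgf4 one of 0.02 (SE 0.24), and neither was called.

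Of 6 FGF receptor and klotho genes, 1 was called lower and 1 higher in 40kb cells, both at very low counts. Over all genes, 5.67% were called lower and 0.763% higher. Klb encodes beta-klotho, the co-receptor for Fgf15, and held 27, 8, 14 and 4 counts in 40kb cells against 2 and 1 in WT cells (edgeR adjusted p = 0.0408). Its pooled ratio was 9.37, with a 95% exact interval of 3.04 to 46.9 that covers counting error only. Kl, encoding the klotho that serves Fgf23, held 3, 2, 4 and 1 counts in 40kb cells against 11 and 19 in WT cells (edgeR adjusted p = 0.0404), a pooled ratio of 0.177 with an interval of 0.0771 to 0.372. Each of the 4 single 40kb libraries, when left out, ended the call of Kl, and 3 of them that of Klb, whose fitted log2 value was 0.54 against the WT of the other set. The receptors Fgfr1 to Fgfr4 were not called, with log2 fold changes from -1.33 to 0.91. All 6 genes nonetheless stood at an unadjusted p under 0.05 in edgeR, where 23.5% of all genes did. Without overlap 4 of them were lower and 2 higher, where 19.7% and 16.4% of all genes were.

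**Figure D5:**
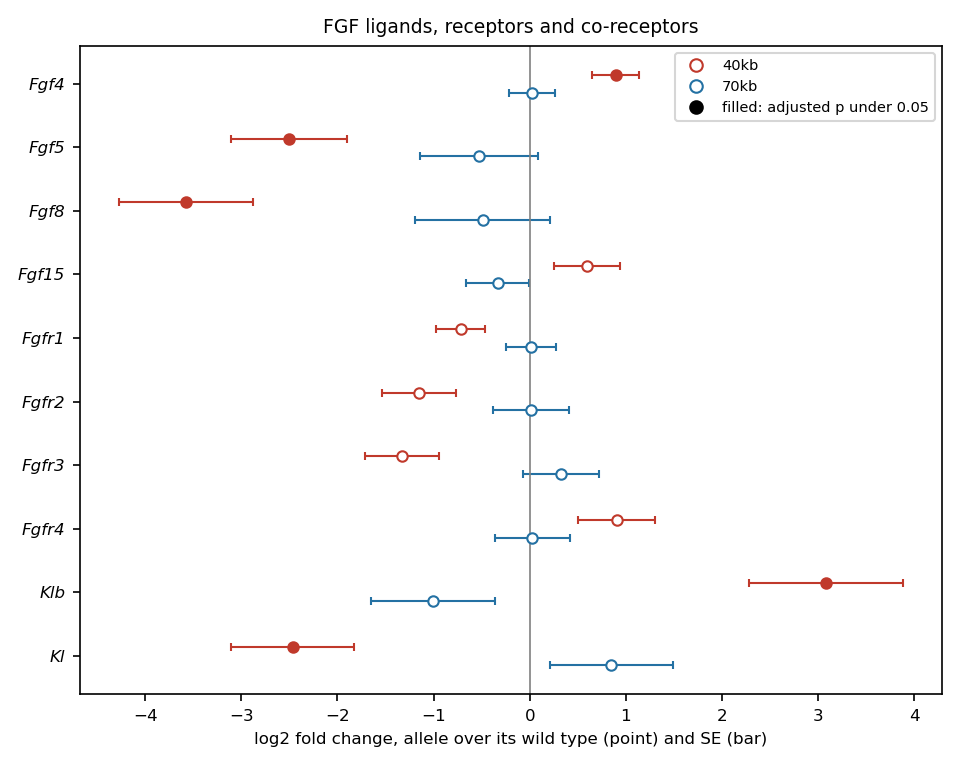
Log2 fold change (horizontal axis, points, with SE as bars) of FGF ligands, receptors and klotho co-receptors for 40kb cells over their WT in red and 70kb cells over their WT in blue; filled points have an adjusted p under 0.05. In 40kb cells Fgf5, Fgf8 and Kl are filled below 0 and Fgf4 and Klb above it; the fitted values of Klb and Kl rest on few counts.

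Over all genes, 5.67% were called lower in 40kb cells. Of 15 other genes of the formative and primed states, 2 were called lower and none higher, with a median log2 fold change of -0.0040. They were Fgf8 and the X-linked kinase gene Pim2, which stood at 15.8, 48.8, 46.4 and 46.3 CPM in 40kb cells, against 92.3 and 144 CPM in WT cells (log2 fold change -1.59, SE 0.35, edgeR adjusted p = 0.0254, called in 12 of 19 alternative settings). The remaining 13, which include the DNA methyltransferase genes Dnmt3a and Dnmt3b, Lef1 and Nodal, did not pass. Of 23 relatives of the members in the OTX, POU3, ZIC, SOX, SALL, FOXD and FGF families, 13 were tested. Fgf4 was the 1 called, where 6.43% of all genes were called in either direction and 0.763% higher. In 70kb cells none of these genes was called.

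Of 18 genes of the naive state, 3 were called higher in 40kb cells and none lower, with a median log2 fold change of 0.67. Over all genes, 0.763% were called higher and 5.67% lower. The 3 were Dppa2 (0.70, edgeR adjusted p = 0.0392), Nr0b1 (1.17, adjusted p = 0.0460) and Fgf4. The direction of Dppa2 and Nr0b1 held in all 19 alternative settings, the call of Dppa2 in 8 and that of Nr0b1 in 6. The 1 naive gene with a fold change below 0 was Dppa3, which averaged 11.9 ± 11.2 CPM in 40kb cells (SD, n = 4) and 39.6 ± 9.58 CPM in WT cells (SD, n = 2; log2 fold change -1.73, SE 0.56, edgeR adjusted p = 0.0882). None of the 10 ES cell markers was called, and they summed to 7332 to 9138 CPM in 40kb cells, against 5574 to 6247 CPM in WT cells.

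Many markers of some other cell types were also lower in 40kb cells, where 5.67% of all genes were called lower. Like the lists above, these were chosen with earlier results of these data known, so their shares are descriptions and not tests. As with every call in 40kb cells, theirs rest on both WT libraries. Of 13 tested fibroblast genes 9 were called lower, among them Fbn1, Dcn and Tagln, and 1, Thy1, had a fold change above 0. The 15 listed summed to 10.7 to 46.5 CPM in 40kb cells, against 270 to 352 CPM in WT cells. The largest terms in WT cells were Tagln (160 and 238 CPM) and Acta2 (58.4 and 62.9 CPM). Of the 15 only Fap was at 0 in all 4 edited libraries. Of 11 tested trophoblast genes 5 were called lower, among them Krt19, Krt8 and Krt18, and 2, Ascl2 and Tfap2a, had fold changes above 0. The 12 listed summed to 44.8 to 135 CPM in 40kb cells, against 512 to 626 CPM in WT cells, and none was at 0 throughout a group. The largest terms in WT cells were Krt8 (198 and 287 CPM) and Krt18 (174 and 214 CPM). Among the transcription factors listed, Tfap2c stood at 83.5 and 49.8 CPM in WT cells. Others were low there, with Cdx2 at 0.733 and 2.30 CPM, Gata3 at 1.33 and 1.24 CPM and Elf5 at 0.114 and 0.127 CPM. Of 10 tested streak and mesoderm genes 4 were called lower, among them Wnt3, Fgf8 and Kdr; the 13 listed summed to 4.93 to 9.17 CPM in 40kb cells, against 20.04 to 65.3 CPM in WT cells, with Cer1 at 0 in the edited ones.

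Of 8 tested neural genes 1 was called lower (Nes, encoding a filament protein of neural and other progenitors), and of 12 primitive endoderm genes 2 were (Dab2 and Col4a2). Neither list moved in 1 direction. Fold changes were above 0 for 3 of the 8 neural genes and 7 of the 12 primitive endoderm genes. Their medians were -0.41 and 0.14 on the log2 scale. Over all genes, 5.67% were called lower. In the 70kb set the fibroblast genes summed to 49.8, 152, 211 and 570 CPM in 70kb cells, against 81.6 and 308 CPM in WT cells. In the same order of libraries, by rising sum, Fgf5 stood at 1.71, 6.31, 4.03 and 3.69 CPM in 70kb cells, against 2.90 and 8.45 CPM in WT cells. The part of these markers in the values of Fgf5, Sall2 and Sox11 was not tested.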

How the data were processed

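RNA was measured in 12 libraries. The deposited table holds whole-number counts per gene; the submitters' processing notes name STAR and edgeR, without versions, and the mm9 build. A stranded kit for polyadenylated RNA was used, per the labels' protocols. Symbols were matched by Ensembl identifier (32620 of 37310). Tests used edgeR 4.0.16 (R 4.3.3): default filter on low counts, TMM scaling, quasi-likelihood fit of 12 libraries with a mean per group (8 residual degrees of freedom, biological coefficient of variation 23.8%), and Benjamini-Hochberg adjustment over 16636 genes. Clones were compared in a fit with a mean per clone. DESeq2 1.42.0 was an alternative. CPM are counts over the TMM-scaled library size, and log2 CPM used a prior count of 2. On simulated counts for the 40kb comparison (16397 genes), 35.4% of 2-fold and 77.8% of 4-fold changes were recovered, with 5 false calls. The simulated libraries were independent and had no clone effect, so these figures may not hold for libraries that share a clone. No replicates were duplicates. Other genes named are up to 3 called genes per list with the smallest adjusted p, and the 2 of nearest pattern for the 3 most variable members. Members and lists were chosen with earlier results of these data known. Other assays of the series were not used here.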

Additional observations from a re-analysis of the deposited data

Results flagged for a closer look

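Zic2 in 40kb clone 1 replicate 1 stood apart from the other libraries of that allele, at 41.2 CPM, where the nearest of the other 3 was at 57.7 CPM. Its gap was 0.893 of the range of the 4 libraries, above Dixon's critical value for 4 values at the 95% level. Of 18 groups of 4 libraries tested (9 members in 2 alleles), 1 was picked out, and chance picks about 1 in 20. The same library had the lowest level of Fgf5, Sall2, Sox3 and Sox11 among the 12. Without it, Zic2 had a log2 fold change of 0.73 in 40kb cells (edgeR adjusted p = 0.0544).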

How the results depend on the processing

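In 40kb cells the number of genes called was 1874 with DESeq2, 3 with counts summed per clone, 2476 and 530 with clone 1 or clone 2 alone, and 0 against the WT of the other set. Leaving out 1 of the 40kb libraries gave 277 to 1099 genes, and leaving out either WT library 0; members called were 0 to 1. The members called were 4 with clone 1 alone and 0 with summed counts, clone 2 alone or the other WT. Same-numbered libraries of allele and WT had correlations of deviations from -0.33 to 0.21 in the 40kb set, where the number does not follow the B code. In the 70kb set, where number and code coincide, all 4 were above 0, from 0.053 to 0.61, and those of the same code in the 40kb set were 0.26 and 0.20. With 2 WT libraries per set, their deviations from the group mean are mirror images. These correlations are therefore tied to each other and cannot decide which label pairs the libraries. In the 40kb comparison a block on the replicate number gave 1614 genes and a block on the B code 357, while in the 70kb comparison both blocks gave 0 genes. Fgf5 kept its call with the number (log2 fold change -2.45, edgeR adjusted p = 0.0104) and, barely, with the code (-2.23, adjusted p = 0.0492). Codes B1 and B5 each hold a single library, so with the code block the 40kb value rests on the libraries of B2 and B6. Summed counts ended the call of Fgf5 (-2.54, edgeR adjusted p = 0.0677). The direction turned in 40kb cells for Sox3 with clone 2 alone (0.0021) and, against the other WT, for Otx2 (-0.053) and Foxd3 (-0.050). Leaving out 1 library gave -1.64 to -0.99 for Sall2, -1.04 to -0.20 for Sox3, 0.38 to 0.92 for Zic2, 0.60 to 1.205 for Foxd3 and 0.41 to 0.81 for Fgf15.

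In 70kb cells 1 gene was called without a filter, with clone 1 alone and against all 4 WT libraries, and 3 with DESeq2. No member was called in any setting, and several small values changed sign. With clone 1 alone Foxd3 was 0.20 and Sox11 -0.31. Against the other WT Sox3 was 0.19, Fgf15 0.043, Foxd3 0.82 and Sox11 -0.056, and against all 4 WT libraries Sox3 was 0.037, Foxd3 0.29 and Sox11 -0.023. Leaving out 1 library gave -1.10 to 0.44 for Fgf5, -0.43 to 0.32 for Sox3, -0.82 to 0.18 for Sall2, -0.34 to 0.073 for Foxd3 and, for Sox11, -0.23 to 0.12 on leaving out an edited library and -0.18 to 0.23 on leaving out a WT one.

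The difference of effects kept its direction for all 9 members in 17 of 17 alternatives; DESeq2 called 399 genes and 1 member, and 10 genes were called without a filter, with 0 to 1 on leaving out 1 library. For the clones, alternatives were chosen after seeing the data. In the 40kb allele, DESeq2 called 562 genes and 1 member, library totals 24 genes, and no filter 1317 genes and 4 members, with 1 to 2914 genes and 0 to 2 members on leaving out 1 library. In the 70kb allele, DESeq2 called 179 genes, and no filter 741 genes and 1 member, with 1 gene in each leave-out. Where not stated, the cause was not tested. Low counts limit Fgf5 and Sox3, and 2 WT libraries per set limit every comparison.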
